A study of Mus musculus with 9 samples.

Results

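The transcripts examined here are those of the mitochondrial ribosomal proteins, the nuclear genes whose symbols start with Mrpl or Mrps followed by a number. Of 18193 genes with a probe set of their own on the array, 76 had such a symbol, 47 of them Mrpl and 29 Mrps, and each was read from 1 probe set, the brightest by its mean over the 9 arrays. Of these 76, 49 encode proteins of the large subunit of the mitochondrial ribosome (Mrps18a and Mrps30 included), 26 encode proteins of the small subunit, and Mrps36 is now known as a component of the 2-oxoglutarate dehydrogenase complex. Mrpl30 and Mrpl53 were only on probe sets shared with another gene and were not counted.

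Mitochondria translate the few messenger RNAs of their own genome, all for inner membrane proteins of oxidative phosphorylation, on a ribosome that descends from that of bacteria. Its RNAs come from mitochondrial DNA, whereas all of its proteins are encoded in the nucleus, made in the cytosol and imported. Tylosin is a macrolide, a class that binds in the peptide exit tunnel of the large subunit of bacterial ribosomes, beside the proteins L4 and L22, and amoxicillin is a beta-lactam, which acts on the bacterial cell wall.

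Liver RNA from 9 female C57BL/6J mice was hybridized to Affymetrix Mouse Genome arrays, with 3 control, 3 amoxicillin and 3 tylosin mice. For the antibiotic (PAT) groups the drinking water held amoxicillin at 0.167 mg/mL, meant to give 25 mg/kg/day, or tylosin at 0.333 mg/mL, meant to give 50 mg/kg/day. There were 3 courses, on days 10 to 15, 28 to 31 and 37 to 40 of life, and control mice had received no antibiotic. The first course came before weaning, and the paper describes the earliest dose as reaching the pups through the milk of their mothers. All groups were later fed a high-fat chow, and livers were taken months after the last course, at 22 weeks by the description of the protocol and 24 weeks by the sample labels. Littermates were kept in 1 treatment group and housed together, and the litter of each sample is not given. The replicates carry numbers only, so p-values here reflect only how far these samples spread, which may be partly technical. The values are log2 expression values normalized by the authors, from 2 to 14.71 over the whole array, and a log2 fold change is a difference of group means on that scale.

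The liver label was borne out by 7 hepatocyte markers, whose mean log2 value was 13.43 to 13.61 in the 9 arrays. Amoxicillin replicate 1 and tylosin replicate 2 stood apart with a mean of 7.19 and 6.96 over 8 intestinal mucosa markers, against 4.75 to 5.57 in the others, and of 6.03 and 6.40 over 5 smooth muscle markers, against 3.83 to 4.27. Tylosin replicate 3 had the highest mean over 6 Kupffer cell markers (9.45, against 8.08 to 9.17) and the lowest limma array weight (0.57, against 0.82 to 1.63). It also had the smallest 3' minus 5' difference of the actin control probe sets (1.21 log2 units, against 1.29 to 1.73). That difference was 1.29 to 1.40 in control and 1.39 in amoxicillin replicate 2. Amoxicillin replicates 1 and 3 (1.57 each) and tylosin replicates 1 and 2 (1.49 and 1.73) lay above all controls. The part of this difference in the fold changes was not tested. The mean over 5 endothelial markers was 6.93 to 7.07 in control, 7.09 to 7.21 with amoxicillin and 7.12 to 7.33 with tylosin, so all 6 PAT arrays lay above all controls in these. In whole liver, fewer cells of a type and less RNA per cell cannot be told apart.

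Promoters of 4 genes are shown for the short motifs that promoters of this gene group are known for, the core of the site of NRF1, a regulator of nuclear genes for mitochondria, and the core of the site of ETS factors such as GABPA. Each is the 150 bases before the transcription start in the RefSeq promoter table (GRCm38.p6), with the cores on either strand in capitals. The RefSeq gene spans of Mrpl9 and Mrpl22 begin farther upstream than the start used in that table. Mrpl3 and Mrpl9 had some of the highest fold changes below, Mrpl17 had the lowest of amoxicillin against control, and Mrpl22 encodes the counterpart of a protein at the macrolide site.
Mrpl3 (chr9:105053118-105053267, plus strand): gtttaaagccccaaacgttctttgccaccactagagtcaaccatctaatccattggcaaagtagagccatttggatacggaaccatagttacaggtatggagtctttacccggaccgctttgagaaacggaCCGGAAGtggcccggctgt
Mrpl9 (chr3:94443186-94443335, plus strand): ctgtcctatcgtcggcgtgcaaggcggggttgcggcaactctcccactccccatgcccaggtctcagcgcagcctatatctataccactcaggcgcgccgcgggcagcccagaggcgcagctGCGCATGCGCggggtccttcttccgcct
Mrpl17 (chr7:105811088-105811237, minus strand): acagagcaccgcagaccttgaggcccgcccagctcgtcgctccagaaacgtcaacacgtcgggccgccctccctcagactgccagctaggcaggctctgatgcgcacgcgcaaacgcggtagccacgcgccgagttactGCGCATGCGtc
Mrpl22 (chr11:58171514-58171663, plus strand): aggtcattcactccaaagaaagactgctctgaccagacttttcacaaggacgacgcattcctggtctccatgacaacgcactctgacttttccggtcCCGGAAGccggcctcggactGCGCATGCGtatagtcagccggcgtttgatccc

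The ETS core (CCGGAAG) of Mrpl3 was at positions -19 to -13 from the start, and the NRF1 core (GCGCATGCG) was at -28 to -20 in Mrpl9, -11 to -3 in Mrpl17 and -33 to -25 in Mrpl22, which also held an ETS core at -53 to -47. Mrpl17 had a further ETS core outside the stretch shown, at -237 to -231. In the table, which runs from 250 bases before to 50 after each start, 67 of the 76 genes had a promoter. Searched on both strands, the NRF1 core was in 7 of them (10.4%), against 3.09% of 14452 genes of the array and 1.95% of 27025 genes in the table. The ETS core was in 25 (37.3%), against 15.0% and 9.93%. The core of the site of YY1, another regulator of mitochondrial genes (AAGATGGCG), was in 8 (11.9%), against 2.53% and 1.64%. The NRF1 core reads nearly alike on both strands, and overlapping matches were counted once. Genes of oxidative phosphorylation with a promoter had these cores in 10.4%, 25.4% and 8.96% and those of the cytosolic ribosome in 5.26%, 50.0% and 5.26%. The 29 mitochondrial ribosomal genes with an NRF1 or ETS core were at a median of 0.06 (amoxicillin) and 0.05 (tylosin) in log2 fold change against control, and the 38 without either core were at 0.05 and 0.07.

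All 76 genes had a mean log2 value over 6 in these livers, from 6.20 for Mrps27 to 10.83 for Mrpl39. Levels of different probe sets are not comparable, so genes are compared here only through their differences between arrays. From the lowest to the highest of the 9 arrays, the values of a gene spanned 0.33 log2 units at the median, from 0.13 for Mrpl10 to 0.95 for Mrpl1. The span was under 0.5 in 65 of 76 genes (85.5%), against 51.5% of the 7524 genes of the array with a mean log2 value over 6. Within a group, the median SD of the 76 genes was 0.11 in control, 0.09 with amoxicillin and 0.10 with tylosin (n = 3 each), and that of the 7524 genes was 0.12, 0.10 and 0.14. In 28 of the 76 genes (36.8%, against 35.03% of the 7524) the deposited value was exactly the same in 2 or more arrays, as for Mrpl49, listed at 7.50 in all 3 amoxicillin arrays, where its SD was therefore 0.

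**Figure D1:**
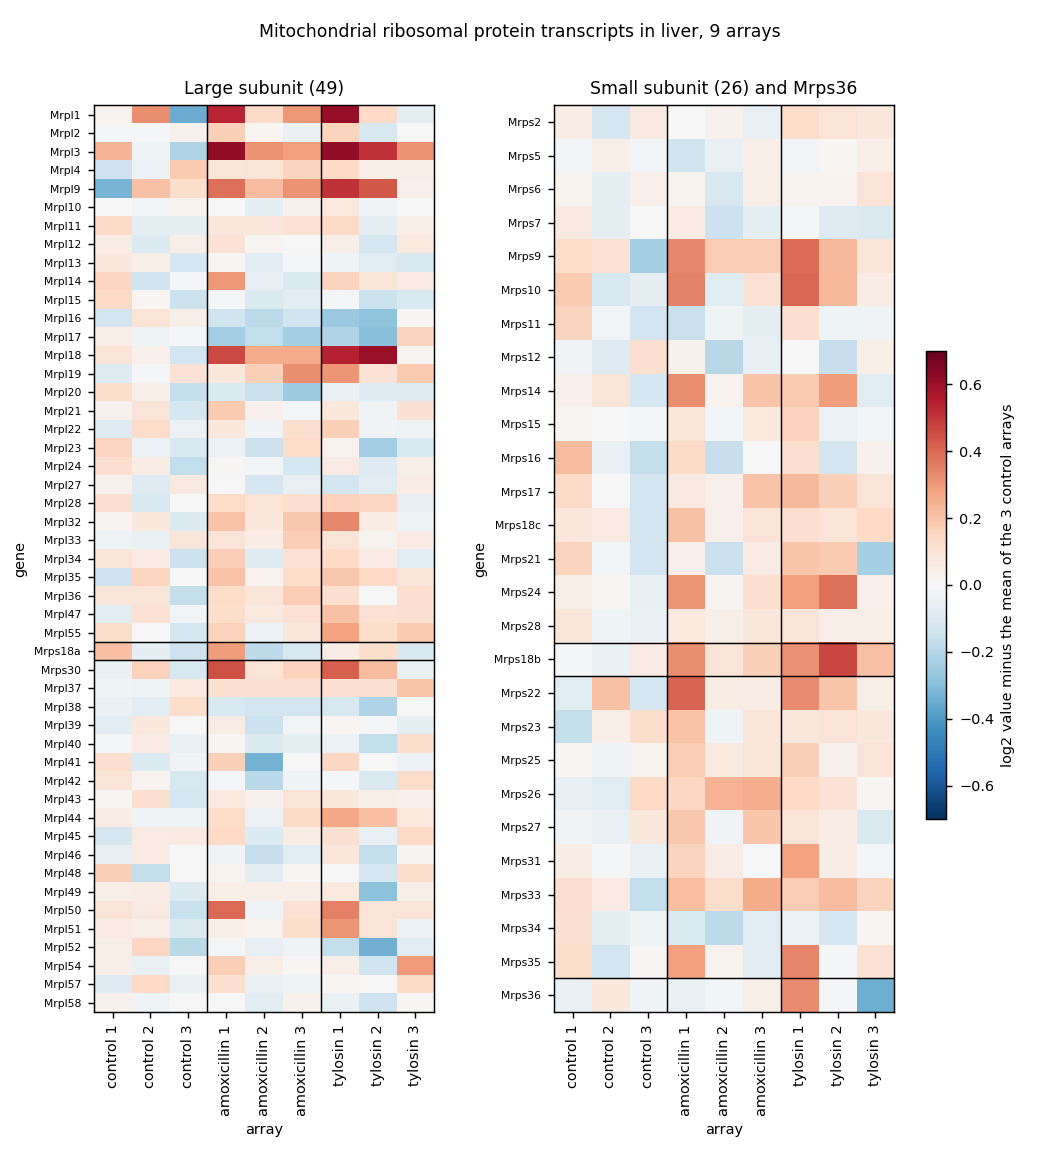
Each of 76 genes (rows) in each of 9 arrays (columns), coloured by its log2 value minus the mean of the 3 control arrays, with lines between homologues of bacterial proteins, S18 paralogues and mitochondria-specific proteins. Mrpl1, Mrpl3, Mrpl9 and Mrpl18 hold most of the dark red cells, and most other genes stay pale in every array.

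At the thresholds of the study's methods, an unadjusted limma P under 0.01 with an absolute log2 fold change over 0.5, a change of 1.41-fold, 0 of 76 mitochondrial ribosomal genes were called between amoxicillin and control, where 1.28% of all genes were. Between tylosin and control 0 of 76 were called, where 1.45% of all genes were, and between tylosin and amoxicillin 0 of 76, where 0.11% were. At an unadjusted P under 0.05, 2 genes were higher and 0 lower with amoxicillin (all genes, 7.14% and 8.34%), and 3 were higher and 0 lower with tylosin (8.29% and 8.3%). Between the antibiotics 0 were higher and 0 lower at that P (1.78% and 1.36%). Of the 7524 genes with a mean log2 value over 6, the range of all 76, 12.6% were higher and 3.3% lower with amoxicillin at that P. With tylosin 14.6% of them were higher and 3.59% lower. After Benjamini-Hochberg adjustment of the limma P over all probe sets, 0 of the 76 genes and 0% of all genes passed an adjusted p of 0.05.

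The intervals of the differences were narrow. The 95% interval of the log2 fold change lay wholly between -0.5 and 0.5 for 70 of 76 genes with amoxicillin (92.1%, against 70.3% of all genes) and for 68 with tylosin (89.5%, against 69.9%). The exceptions reached beyond 0.5 on the upper side, and were Mrpl1, Mrpl3, Mrpl9, Mrpl18, Mrps9 and Mrps30 in both comparisons and also Mrps10 and Mrps18b with tylosin. Between tylosin and amoxicillin the interval was within these bounds for 75 of 76 genes (84.4% of all genes), the exception being Mrpl1 (-0.54 to 0.35). The fold changes themselves ran from -0.22 to 0.41 with amoxicillin, from -0.19 to 0.48 with tylosin and from -0.16 to 0.14 between both.

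**Figure D2:**
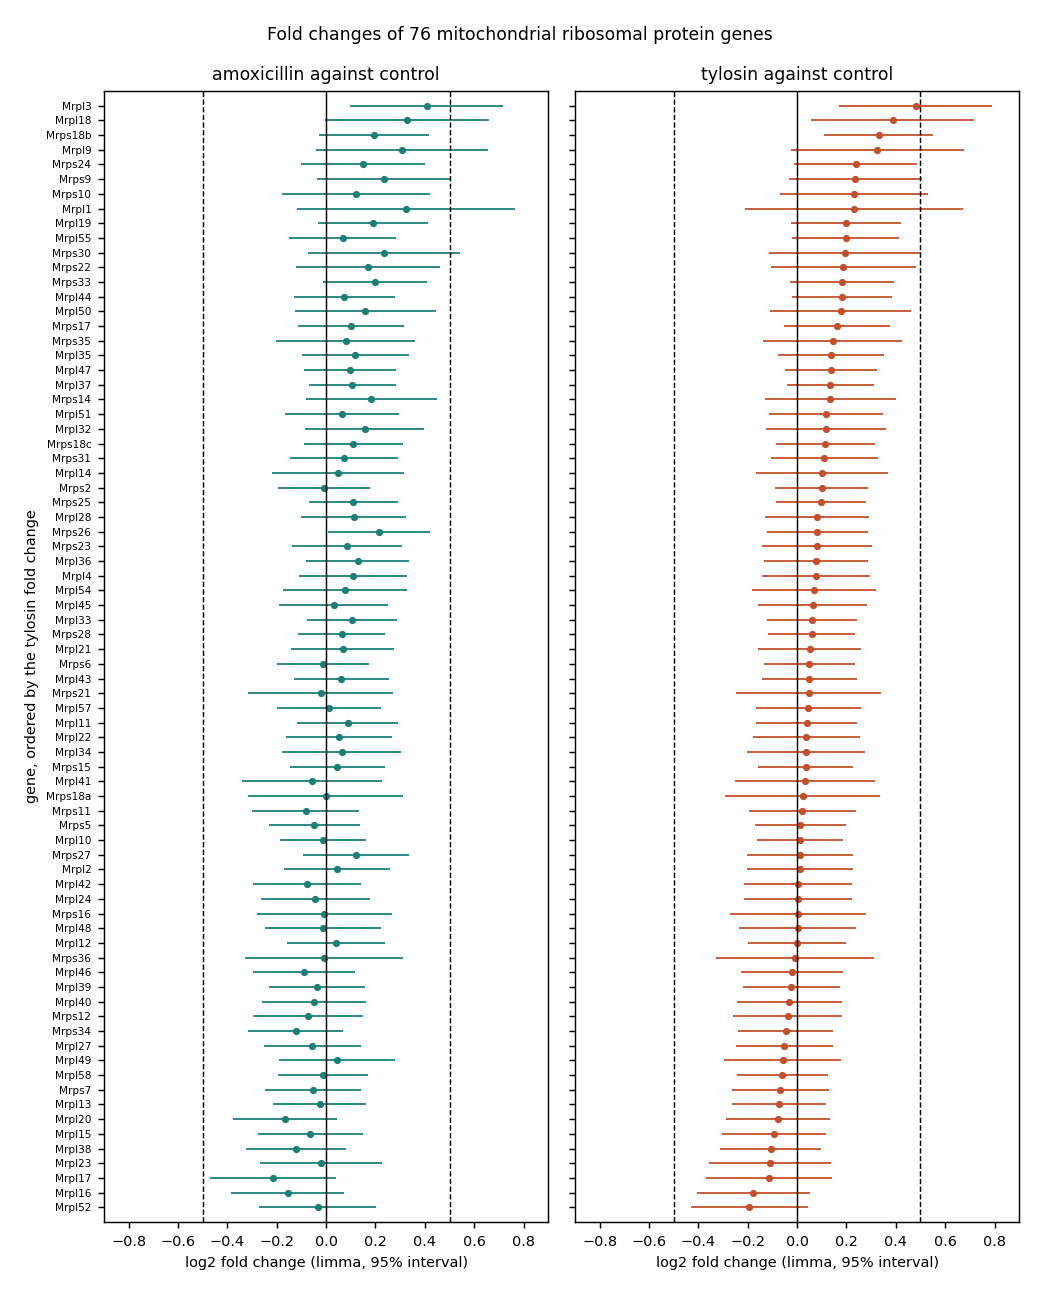
Log2 fold change (points) with its 95% limma interval (lines) of each of 76 genes (rows) for amoxicillin (left) and tylosin (right) against the same 3 control arrays, with dashed lines at -0.5 and 0.5. Most intervals lie between the dashed lines and cross 0, and Mrpl3 lies farthest right in both panels.

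The transcripts for counterparts of the proteins nearest to the macrolide site of the bacterial ribosome were looked at first. Mrpl4 encodes the mitochondrial counterpart of L4, which lines the exit tunnel. It was at 8.32, 8.42 and 8.64 in the control, 8.54, 8.55 and 8.62 in the amoxicillin and 8.60, 8.51 and 8.50 in the tylosin arrays. All PAT values of Mrpl4 fell within the range of the controls, and the log2 fold change was 0.11 (-0.11 to 0.33) with amoxicillin and 0.08 (-0.14 to 0.29) with tylosin.

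Mrpl22, the counterpart of L22 on the opposite wall of the tunnel, was at 8.94, 9.16 and 8.99 in control, 9.11, 9.01 and 9.14 with amoxicillin and 9.20, 9.01 and 8.999 with tylosin. The groups overlapped, with a log2 fold change of 0.05 (-0.16 to 0.27) and 0.04 (-0.18 to 0.25). Mrpl23, the counterpart of L23 at the rim of the tunnel, was at 9.25, 9.05 and 8.99 in control, 9.05, 8.95 and 9.22 with amoxicillin and 9.12, 8.86 and 8.99 with tylosin. Its groups overlapped too, and the log2 fold change was -0.02 (-0.27 to 0.23) with amoxicillin and -0.11 (-0.36 to 0.14) with tylosin. Under other scalings or without single arrays the values of Mrpl4, Mrpl22 and Mrpl23 lay between -0.18 and 0.20, and the sign of each turned in at least 1 comparison.

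Among transcripts for proteins that reach towards the peptidyl transferase centre, where peptide bonds are made, Mrpl2 and Mrpl27 differed little between groups. The fold change of Mrpl16 was among the lowest. Mrpl2 was at 9.19 to 9.23 in control, 9.15 to 9.37 with amoxicillin and 9.09 to 9.36 with tylosin. Mrpl27 was at 9.66 to 9.81, 9.63 to 9.76 and 9.62 to 9.80. The log2 fold changes of Mrpl2 and Mrpl27 were between -0.06 and 0.04 in both comparisons with control, but the most variable probe set of Mrpl27 gave 0.12 with amoxicillin. Mrps12, the small subunit protein that helps to read the codon, was at 9.09 to 9.29 in control, 8.98 to 9.21 with amoxicillin and 9.02 to 9.22 with tylosin, with a log2 fold change of -0.07 (-0.30 to 0.15) and -0.04 (-0.26 to 0.18).

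Mrpl16 was at 9.06, 9.29 and 9.24 in the control arrays, 9.05, 9.01 and 9.05 with amoxicillin and 8.94, 8.91 and 9.20 with tylosin. Every amoxicillin value lay below every control value, by a narrow margin, and the tylosin values overlapped the controls. The log2 fold change was -0.16 with amoxicillin (limma adjusted p = 0.49) and -0.18 with tylosin (adjusted p = 0.44). The tylosin value was -0.27 without tylosin replicate 3 and -0.125 without both arrays with high intestinal markers.

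Mrpl3, the counterpart of L3, which also reaches the peptidyl transferase centre, had the highest fold change of the 76 in both comparisons with control. It was at 7.82, 7.55 and 7.37 in the control, 8.20, 7.89 and 7.86 in the amoxicillin and 8.20, 8.08 and 7.89 in the tylosin arrays. All 6 PAT values lay above all 3 control values. The log2 fold change was 0.41 ± 0.14 (SE) with amoxicillin, 1.33-fold (limma adjusted p = 0.26), and 0.48 ± 0.14 with tylosin, 1.40-fold (adjusted p = 0.21). With tylosin the unadjusted P passed its threshold of 0.01 and the fold change fell just short of 0.5. Both comparisons rest on the same 3 control arrays, of which replicate 1 was nearest to the PAT arrays, and without it the log2 fold changes were 0.53 and 0.60 and both were called. When the probe sets of Mrpl3 were averaged in place of taking the brightest, they were 0.16 and 0.27.

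Mrpl18 encodes the counterpart of L18, a protein of the central protuberance at the top of the large subunit. It was at 8.44, 8.38 and 8.21 in control, 8.81, 8.60 and 8.60 with amoxicillin and 8.88, 8.95 and 8.36 with tylosin. All amoxicillin values were above the controls, whereas tylosin replicate 3 lay among them. The log2 fold change was 0.33 ± 0.15 with amoxicillin (limma adjusted p = 0.34) and 0.39 ± 0.15 with tylosin (adjusted p = 0.28). Without tylosin replicate 3, the array highest in Kupffer cell markers and lowest in array weight, that of tylosin was 0.57 and was called. Without both arrays with high intestinal markers, among them tylosin replicate 2, the tylosin value was 0.28.

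Mrps18b is 1 of the 3 mammalian relatives of bacterial S18 and sits in the small subunit. It was at 7.997, 7.959 and 8.066 in control, 8.33, 8.10 and 8.18 with amoxicillin and 8.33, 8.48 and 8.21 with tylosin. All PAT values were above all control values, and the log2 fold change was 0.19 ± 0.10 (limma adjusted p = 0.39) and 0.33 ± 0.10 (adjusted p = 0.22). Without amoxicillin replicate 1, that of amoxicillin was 0.13. The endothelial markers also lay above control in all PAT arrays, as they did for Mrpl3, and their part in these values was not tested. Of the other S18 relatives, Mrps18c was at 9.60 to 9.80 in control, 9.76 to 9.93 with amoxicillin and 9.82 to 9.86 with tylosin. Mrps18a was at 8.05 to 8.40, 8.01 to 8.48 and 8.09 to 8.31, with a tylosin log2 fold change of 0.02.

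Mrpl9 and Mrpl1 encode the counterparts of L9 and L1, at the stalk that moves tRNA out of the ribosome. Mrpl9 was at 7.10, 7.63 and 7.55 in control, 7.82, 7.65 and 7.74 with amoxicillin and 7.94, 7.86 and 7.46 with tylosin. Its log2 fold change was 0.31 (limma adjusted p = 0.39) and 0.33 (adjusted p = 0.36). Control replicate 1 was low, and without it the tylosin value was 0.16 and that of amoxicillin 0.14. Averaged over its probe sets, they were 0.18 and 0.13. Mrpl1 varied most among the 76, at 6.76 to 7.43 in control, 7.24 to 7.64 with amoxicillin and 7.05 to 7.72 with tylosin, and its groups overlapped.

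Mrps26, a small subunit protein found in mitochondria only, was at 7.90, 7.87 and 8.10 in control, 8.10, 8.20 and 8.21 with amoxicillin and 8.10, 8.06 and 7.96 with tylosin. The log2 fold change with amoxicillin was 0.21 ± 0.09 (limma adjusted p = 0.32), and that with tylosin was 0.08. With the most variable probe set of the gene they were 0.04 and -0.15. Mrps24, the counterpart of bacterial S3, was at 9.84 to 9.94 in control, 9.91 to 10.21 with amoxicillin and 9.93 to 10.28 with tylosin (log2 fold change 0.15 and 0.24), and the amoxicillin value was 0.07 without amoxicillin replicate 1. Mrps30, a mitochondria-specific protein of the large subunit, was at 7.83 to 8.10, 8.04 to 8.39 and 7.89 to 8.36 (0.24 and 0.19), with 0.13 without amoxicillin replicate 1 and 0.08 without tylosin replicate 1.

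On the low side, Mrpl17, the counterpart of L17, was at 10.05, 9.97 and 9.99 in control, 9.77, 9.83 and 9.77 with amoxicillin and 9.80, 9.71 and 10.16 with tylosin. The amoxicillin values were all below the controls, and those of tylosin lay on both sides. The log2 fold change was -0.22 ± 0.12 (limma adjusted p = 0.40) and -0.11 ± 0.12 (adjusted p = 0.66). That of tylosin was -0.25 without tylosin replicate 3 and -0.03 without tylosin replicate 2, and the most variable probe set gave -0.34 and -0.38. Mrpl52, a mitochondria-specific protein of the large subunit, had the lowest value with tylosin (-0.19, limma adjusted p = 0.42), at 9.54 to 9.87 in control and 9.39 to 9.65 with tylosin, which overlapped. Its most variable probe set gave 0.20 instead, and without control replicate 2 the value was -0.12. The amoxicillin values of Mrpl38 (7.80 to 7.83, control 7.86 to 8.05) and Mrps34 (9.63 to 9.73, control 9.75 to 9.92) were below all controls, by -0.12 each at the mean, and Mrpl20, the counterpart of an early assembly protein of the bacterial large subunit, was at 8.47 to 8.62 against 8.56 to 8.84 (-0.17). Each was smaller in size without 1 control array, at -0.06 for Mrpl38, -0.07 for Mrps34 and -0.11 for Mrpl20, and the most variable probe set of Mrpl38 turned the direction (0.10 with amoxicillin and 0.02 with tylosin).

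**Figure D3:**
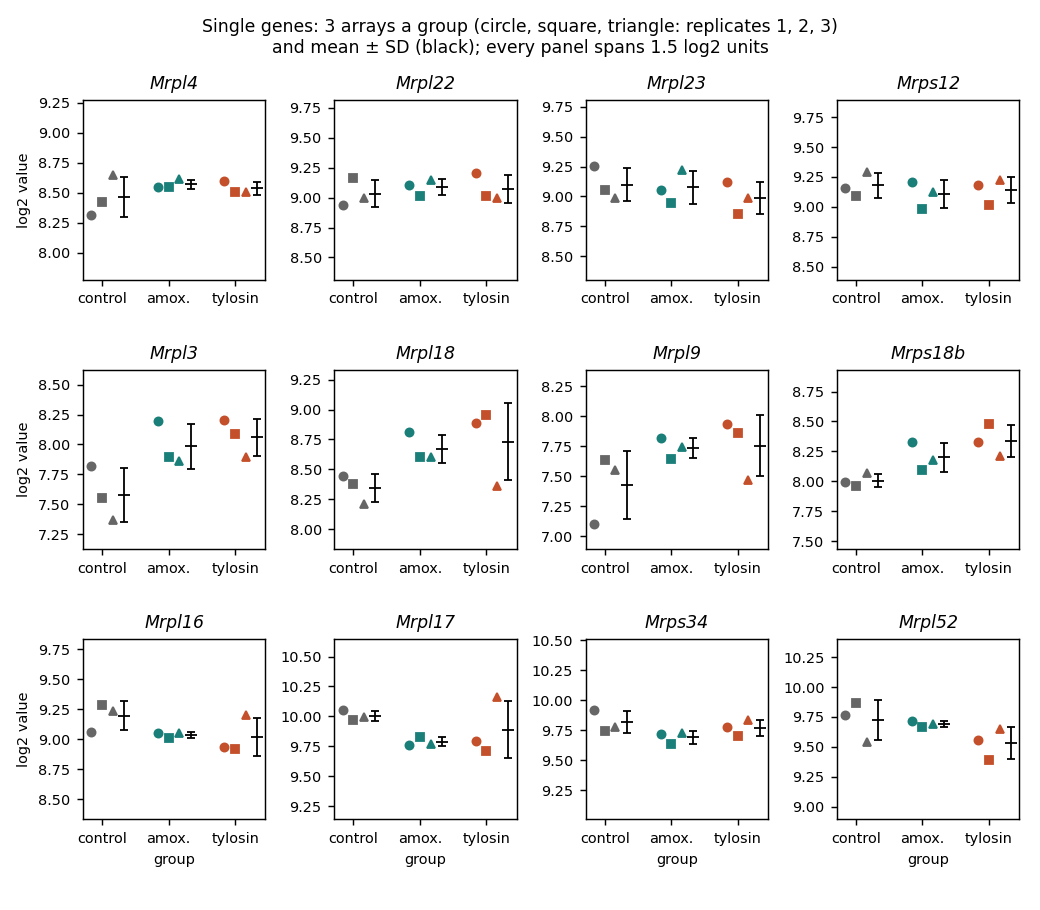
Log2 values of 12 genes in 3 arrays of each group (symbols by replicate) with the group mean ± SD beside them, every panel spanning 1.5 log2 units. The tunnel and decoding genes of the top row overlap between groups, Mrpl3 and Mrps18b lie above control in all PAT arrays, and tylosin replicate 3 (triangle) parts from the other tylosin arrays in Mrpl17 and Mrpl18.

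Counted over all 76 genes, 9 had all amoxicillin values above all control values and 4 had them all below, where 9.52% and 11.4% of all genes did and, of the genes with a mean over 6, 17.3% and 6.39%. The 9 were Mrpl3, Mrpl9, Mrpl18, Mrpl37, Mrps9, Mrps18b, Mrps25, Mrps26 and Mrps33, and the 4 were Mrpl16, Mrpl17, Mrpl38 and Mrps34. With tylosin 9 were above (Mrpl3, Mrpl37, Mrpl44, Mrpl47, Mrps2, Mrps18b, Mrps18c, Mrps25 and Mrps33) and 0 below, where 8.21% and 9.15% of all genes and 14.4% and 4.55% of the brighter genes were. These comparisons share their control arrays. An exact permutation test of 3 against 3 cannot give a two-sided p below 0.1. Between tylosin and amoxicillin, Mrpl20 and Mrps2 were higher without overlap and Mrpl52 and Mrps26 lower, 2 genes each way, where 3.58% and 2.56% of all genes were.

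The 5 highest fold changes of tylosin against amoxicillin were those of Mrps18b (0.14), Mrpl55 (0.13), Mrpl44 (0.11), Mrps10 (0.11) and Mrps2 (0.11), each with an interval that held 0. Mrpl55, the counterpart of L31, was at 7.91, 7.78 and 7.66 in control, 7.95, 7.74 and 7.86 with amoxicillin and 8.07, 7.91 and 7.97 with tylosin, and the antibiotic groups overlapped. Mrps2, the counterpart of S2, was at 8.46, 8.49 and 8.41 with amoxicillin and 8.59, 8.56 and 8.54 with tylosin, just above all controls (8.35 to 8.53). The most variable probe set of Mrps2 turned the direction of tylosin against control, from 0.10 to -0.26. With amoxicillin it gave -0.33, where the brightest gave -0.01. That of Mrpl44 turned the difference between the antibiotics (-0.04). The 5 lowest were those of Mrpl52 (-0.16), Mrps26 (-0.13), Mrps27 (-0.11), Mrpl49 (-0.10) and Mrpl1 (-0.10). Those of Mrpl49 and Mrpl1 turned without single arrays, Mrpl49 to 0.01 and Mrpl1 to 0.05, and that of Mrpl52 turned with its most variable probe set (0.07).

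The median log2 fold change of the 76 genes was 0.06 with amoxicillin and 0.05 with tylosin against control, and 0.01 between both. The medians of all genes were -0.03, -0.01 and 0.01, but those of the 7524 genes with a mean over 6, the range in which all 76 lie, were 0.06, 0.07 and 0.01. The fold change was above 0 in 47 genes (61.8%) with amoxicillin and 57 (75%) with tylosin, where 64.3% and 66.1% of the brighter genes and 44.6% and 46.7% of all genes were above 0. The sign of these medians depended on the scaling of the arrays: after quantile normalization of the deposited values they were -0.02 and -0.03, and after each array was set to the same median they were 0.12 and 0.10.

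The 2 gene groups most like this one had medians of a similar size. The median of 43 cytosolic ribosomal protein genes was 0.02 with amoxicillin and 0.04 with tylosin, and 0 were called in either comparison. That of 82 nuclear oxidative phosphorylation genes was 0.05 and 0.07, with 0 called higher and 1 lower with amoxicillin and 2 higher and 1 lower with tylosin. The quartiles of the mitochondrial ribosomal genes were -0.02 and 0.11 with amoxicillin and 0.00 and 0.14 with tylosin.

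**Figure D4:**
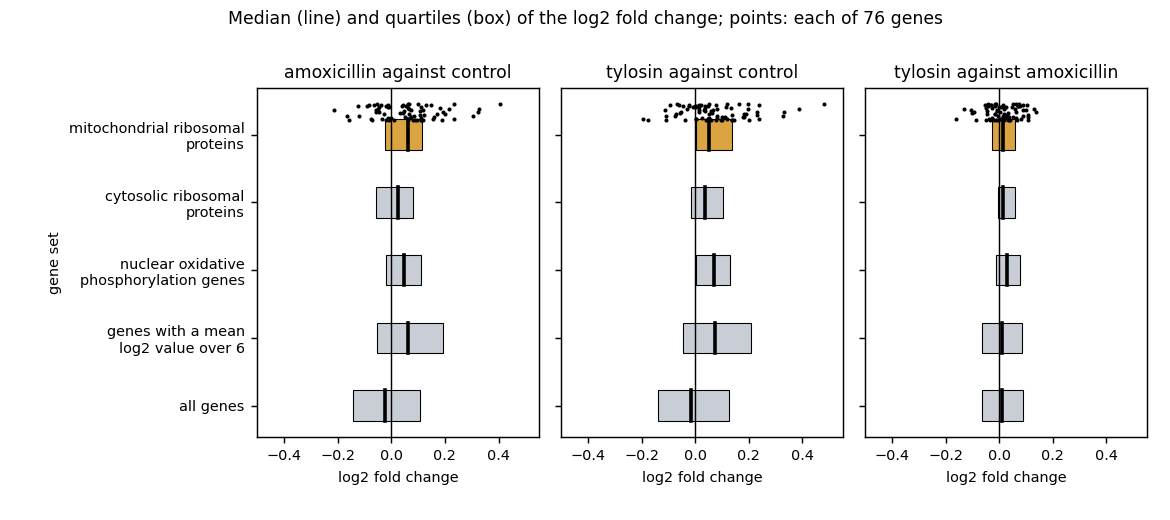
Median (thick line) and quartiles (box) of the log2 fold change in 5 gene sets (rows) for 3 comparisons (panels), with 1 point for each of the 76 mitochondrial ribosomal genes. Their medians of 0.06 and 0.05 against control lie close to those of genes with a mean over 6 (0.06 and 0.07), and the boxes of tylosin against amoxicillin centre near 0.

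By role in the ribosome, the 49 large subunit genes had a median of 0.05 with amoxicillin and 0.04 with tylosin, and the 26 small subunit genes 0.08 and 0.09. The 45 homologues of bacterial ribosomal proteins had 0.06 and 0.05 and the 28 mitochondria-specific genes 0.06 and 0.06. With amoxicillin 17 of 26 small subunit genes (65.4%) and 30 of 49 large subunit genes (61.2%) were above 0, and with tylosin 23 (88.5%) and 34 (69.4%), beside the 64.3% and 66.1% of the brighter genes. The 29 bacterial homologues of the large subunit had medians of 0.07 with amoxicillin and 0.05 with tylosin, and its 19 mitochondria-specific genes 0.01 and 0.03. In the small subunit the 16 homologues had 0.02 and 0.05 and the 9 mitochondria-specific genes 0.11 and 0.10. None of the genes was called, so none of these splits could hold a called gene.

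Within each group, single arrays were high or low for many of the genes at once. In the amoxicillin group, replicate 1 held the highest value of 51 of the 76 genes (67.1%, against 46.4% of the brighter genes) and replicate 2 the lowest of 55 (72.4%, against 43.5%). In the tylosin group replicate 1 held the highest of 48 (63.2%, against 47.2%). In control, replicate 1 held the highest of 39 (51.3%, against 39.2%) and replicate 3 the lowest of 36 (47.4%, against 38.8%). The median deviation of the 76 genes from their 9-array mean was 0.06 in amoxicillin replicate 1, 0.08 in tylosin replicate 1, -0.05 in amoxicillin replicate 2 and -0.08 in control replicate 3. Those of the oxidative phosphorylation genes in the same arrays were 0.05, 0.06, -0.08 and -0.11. Amoxicillin replicate 1 was also 1 of the 2 arrays with high intestinal markers, and without both of these the median fold change of the mitochondrial ribosomal genes was 0.01 with amoxicillin, 0.07 with tylosin and 0.05 between the antibiotics (0.01 for all genes). Without single arrays the median between the antibiotics ran from -0.03 to 0.04. The part of these other cells in the values was not tested.

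**Figure D5:**
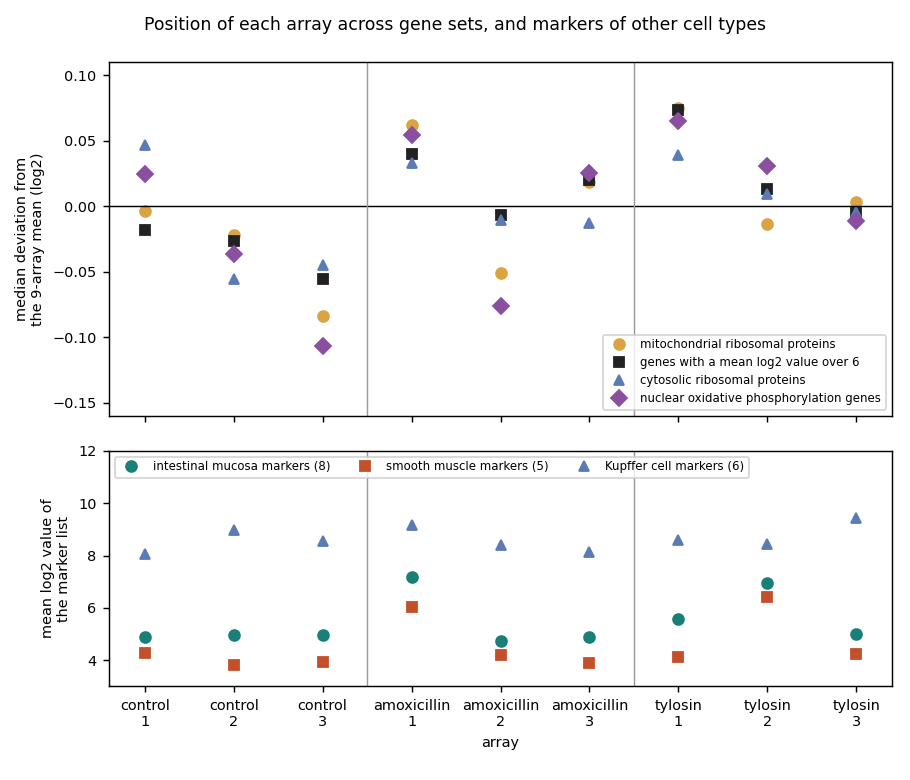
Top, median deviation of 4 gene sets from their 9-array mean (log2) in each array, and bottom, mean log2 value of 3 marker lists of other cell types. Control replicate 3 and amoxicillin replicate 2 lie low and amoxicillin replicate 1 and tylosin replicate 1 lie high for the mitochondrial ribosomal genes, and intestinal markers are high in amoxicillin replicate 1 and tylosin replicate 2.

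The 76 genes had 156 probe sets in all. Of the 80 that were not the brightest of their gene, 0 were called against control with either antibiotic, where 1.35% and 1.42% of all probe sets were, and 1 was called between tylosin and amoxicillin, where 0.0933% were. That probe set belongs to Mrpl47, the counterpart of L29, and was dim, at 4.16, 4.30 and 4.26 in control, 3.93, 3.86 and 3.60 with amoxicillin and 4.34, 4.40 and 4.44 with tylosin. The 3 groups did not overlap, and the log2 fold change of tylosin against amoxicillin was 0.60 ± 0.10 (limma adjusted p = 1). The brightest probe set of Mrpl47 was at 7.77 to 7.82 with amoxicillin and 7.80 to 7.90 with tylosin (a log2 fold change of 0.04). Of the 80, 48 had a mean of 6 or less. At an unadjusted P under 0.05, 6 of these were lower and 1 higher with amoxicillin, where 7.84% and 5.89% of 12999 such probe sets of the array were, and 7 were lower and 2 higher with tylosin (7.32% and 5.43%). Of the 32 with a mean over 6, 0 were lower and 2 higher with amoxicillin, where 3.25% and 16% of 3753 were, and 0 lower and 1 higher with tylosin (3.17% and 15.3%).

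The other genes of mitochondrial translation were read from 8 lists of 121 genes, of which 98 were measured. The list of 15 transcripts of mitochondrial DNA had 0 measured genes, so the messages that this ribosome translates were not seen. Of 27 ribosome assembly factors 0 were called, and the extremes with amoxicillin were Gtpbp10, a GTPase of large subunit assembly (0.47, limma adjusted p = 0.25), and Mettl17, a factor of small subunit assembly (-0.37, adjusted p = 0.30), with 0.33 and -0.31 with tylosin. Mettl15, which methylates the small subunit RNA, had the highest tylosin value (0.46, limma adjusted p = 0.31).

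Among 14 translation factors and 16 mitochondrial tRNA synthetases, 0 were called. The highest and lowest factors with amoxicillin were the recycling factor Gfm2 (0.25) and the elongation factor Gfm1 (-0.15), and with tylosin Tsfm (0.16) and Gfm1 (-0.14). Of the synthetases, Cars2 was at 0.29 and 0.35 on the log2 fold scale and Aars2 at -0.28 and -0.16. Of 4 further ribosomal protein genes with other names, Chchd1 (0.17 and 0.14) and Dap3 (-0.07 and 0.06) among them, 0 were called. The lowest log2 fold change of the 4 with tylosin was -0.16, in a gene other than these.

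Among 16 genes that copy, transcribe or process mitochondrial DNA and its RNA, 0 were called. At an unadjusted P under 0.05, 3 were higher with amoxicillin (7.14% of all genes, 12.6% of the brighter ones) and 4 with tylosin (8.29% and 14.6%), while 1 was lower with amoxicillin (8.34% and 3.3%) and 0 with tylosin. Polg2, the accessory subunit of the mitochondrial DNA polymerase, was at 6.36, 6.04 and 5.90 in control, 6.73, 6.42 and 6.59 with amoxicillin and 6.69, 6.66 and 6.39 with tylosin. All PAT values were above the controls, and the log2 fold change was 0.48 with both (limma adjusted p = 0.23 and adjusted p = 0.21), just under the threshold of 0.5. Ssbp1, the mitochondrial single-stranded DNA binding protein, was at 9.72 to 9.91 in control, 10.24 to 10.34 with amoxicillin and 9.96 to 10.54 with tylosin (0.44 and 0.47), and Mterf2 had 0.44 and 0.43. The lowest were Twnk, the mitochondrial DNA helicase, with amoxicillin (-0.26) and Polrmt, the mitochondrial RNA polymerase, with tylosin (-0.34).

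Of 9 regulators of mitochondrial biogenesis, 0 were called against control. At an unadjusted limma P under 0.05, 3 were higher and 2 lower with tylosin (all genes, 8.29% and 8.3%). With amoxicillin 1 was higher and 0 lower at that P (7.14% and 8.34%). Ppargc1a, a coactivator that raises mitochondrial content, was at 7.88, 6.85 and 7.42 in control, 8.36, 8.34 and 7.97 with amoxicillin and 8.95, 8.27 and 7.63 with tylosin. The controls spread over more than a log2 unit, and the log2 fold change was 0.84 (limma adjusted p = 0.29) and 0.90 (adjusted p = 0.26). Ppargc1b, its relative, had -0.19 and -0.68. Of the factors whose cores are shown above, Nrf1 had -0.31 and -0.33, from a mean log2 value of 4.93, and Gabpa 0.22 and 0.24. Myc was the only gene of the 8 lists called in any comparison, at 5.64 to 6.32 with amoxicillin and 6.10 to 7.15 with tylosin (0.85 between both, limma adjusted p = 1). Of 12 genes of mitochondrial stress 0 were called, with Ddit3 the lowest (-0.58 and -0.29) and Yme1l1, an inner membrane protease, the highest (0.29 and 0.33).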

How the data were processed

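Before deposit, the authors ran RMA (affy package, version not stated) on 9 arrays, and the deposited values of 45101 probe sets are log2 expression values. Raw intensities were not used. Without 64 manufacturer's controls, 45037 probe sets were fitted with limma 3.58.1 in R 4.3.3, with 3 groups in 1 model and Benjamini-Hochberg adjustment over all of them. Calls used the paper's thresholds, P under 0.01 together with a log2 fold change beyond 0.5 either way. Symbols came from GEO's annotation of the array, in which 932 probe sets had several and 9211 were unnamed here. The procedure was tested on simulated data. The number of arrays limits the precision.

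Single genes were named by rule: the 5 largest rises and falls of each comparison, genes next to the exit tunnel, peptidyl transferase or decoding centre, genes with discordant probe sets, and called or extreme genes of the lists. The genes and lists were chosen with earlier results of these data known. Alternatives were other thresholds, a filter (log2 over 6 in at least 3 arrays), median centring, quantile normalization, a trended variance, array weights, 2-group fits, other probe set rules, a replicate block and each array left out.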

Additional observations from a re-analysis of the deposited data

Results flagged for a closer look

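A dim probe set of Mrpl47 (mean log2 value 4.14) was taken up because its difference between the antibiotics passed the call thresholds, with a log2 fold change of 0.601 for tylosin against amoxicillin (limma adjusted p = 1). The brightest probe set of the gene differed by 0.04.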

How the results depend on the processing

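Of 1539 values of the 27 named genes under the alternatives, 1493 moved by less than 1 SD between replicates. Many of these could not move. The filter, the trended variance, the 2-group fits and the replicate block leave a fold change as it is. So does leaving out an array of the group not compared. The sign turned under at least 1 alternative for 11 of the 27 with amoxicillin, 11 with tylosin and 15 between the antibiotics. It turned for 0 of the 7 genes beyond 0.2 in size in each comparison with control. Those 7 were picked by the size of the same fold changes, so their count is no separate check. With P under 0.05 and no fold threshold, 2 genes passed with amoxicillin and 3 with tylosin. Median centring called 1 with tylosin (Mrpl3, 1.91% of all genes) and array weights 1 (Mrpl3, 2.05%), and the most variable probe set called 1 between the antibiotics (Mrpl47, 0.132%). With each array left out, 0 to 1 genes were called with amoxicillin (0.874% to 1.96% of all genes), 0 to 2 with tylosin (1.09% to 3.97%) and 0 between both (0.0989% to 0.396%). Those called were Mrpl3 with either antibiotic without control replicate 1 (1.96% and 2.08% of all genes), and Mrpl3 and Mrpl18 with tylosin without tylosin replicate 3 (3.97%).

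The median fold change of the 76 genes was 0.1152 and 0.101 (amoxicillin, tylosin) after median centring and -0.01874 and -0.03304 after quantile normalization. With each array left out it was 0.01 to 0.09 and 0.03 to 0.08. The centring moved the median of all genes by about 0.05.

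Counts of genes without overlap moved most, and those of the array moved with them. Shares in brackets are of all genes and then of those with a mean over 6. With amoxicillin, 22 were higher (17.7%, 29.1%) and 1 lower (6.93%, 3.47%) after median centring, 2 higher (8.14%, 9.81%) and 13 lower (13.4%, 15.1%) after quantile normalization, 4 higher (8.99%, 16.7%) with the mean of all probe sets and 8 lower (12.6%, 7.88%) with the most variable one. Without single arrays they were 9 to 20 higher (9.52% to 15.9%, 17.3% to 27.4%) and 4 to 11 lower (11.4% to 18.7%, 6.39% to 10.7%). With tylosin, 16 were higher (14%, 21.8%) after median centring, and 4 higher (7.02%, 8.13%) and 4 lower (10.8%, 11%) after quantile normalization, while 2 were lower (10.9%, 5.49%) with the mean of all probe sets and 5 (9.93%, 5.53%) with the most variable one. Without single arrays they were 9 to 20 higher (8.21% to 18.4%, 14.4% to 33%) and 0 to 4 lower (9.15% to 19.7%, 4.55% to 11.5%). Between tylosin and amoxicillin, 1 was higher (3.77%, 3.51%) and 1 lower (3.12%, 2.33%) after median centring, and 1 lower after quantile normalization (3.98%, 3.81%), with the mean of all probe sets (2.8%, 3.02%) and with the most variable one (2.62%, 2.68%). There, 23 were higher (15.8%, 19.2%) without both arrays with intestinal transcripts, and 2 to 8 higher (3.58% to 9.66%, 3.89% to 13.8%) and 2 to 7 lower (2.56% to 8.37%, 2.5% to 11%) without single arrays. Fewer arrays in a group make such counts larger by construction, and the other causes were not tested.

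The replicate numbers did not pair the arrays. Of 9 same-numbered pairs, 2 had residuals that correlated over 0.1 (r from -0.25 to 0.15), and 3 of 9 arrays were closest to one of their own number. With the replicate block, 0 of 76 genes were called in each comparison, where 1.46%, 1.56% and 0.198% of all genes were. The block is balanced over the groups and cannot change a fold change, so the medians were again 0.06, 0.05 and 0.01.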
